A study of Paeonia lutea x Paeonia suffruticosa with 9 samples.

Results

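The end points of bud development in the tree peony cultivar 'High Noon' were compared: the floral organ (stage III), where organs had formed, and the vegetative meristem (stage I), where none had. 'High Noon' is a reblooming hybrid of Paeonia lutea and Paeonia suffruticosa. The comparison used 6 of the 9 RNA-seq libraries of the study, 3 of stage III (S3_1, S3_2 and S3_3) and 3 of stage I (S1_1, S1_2 and S1_3), selected by their stage labels. The 3 libraries of the floral meristem (stage II, S2_1 to S2_3) lie between these ends and were used to ask how much of the change had been reached there. All buds came from 5-year-old plants by the labels, and the surrounding scales and leaves had been taken off. The stage was read from sections of parallel buds, not from the sequenced ones, and how many buds went into a library is not given in the sources used here. Nothing states that the 3 libraries of a stage came from separate plants, so the tests measure the spread between libraries. As the libraries were made from bud tissue in bulk, fewer cells of a type and less RNA per cell cannot be told apart.

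A vegetative meristem makes leaves, and a floral meristem makes sepals, petals, stamens and carpels. In model plants the switch is started by FT, a mobile protein made in leaves, and is fixed in the meristem by LFY, its F-box partner UFO, and the MADS-box factors AP1 and FUL. Organ identity is then set by complexes of MADS-box proteins. PI acts in these with a partner to specify petals and stamens, and the SEPALLATA proteins are shared members that hold the complexes together.

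The 6 libraries held 20065002 to 22657762 fragments each, which RSEM had assigned to 137758 long-read transcripts. The paper describes a smaller non-redundant set as the reference for mapping. The difference is not explained in the sources used here, and the deposited counts were used as they are. The tests were run on the counts with edgeR's quasi-likelihood test, and levels are given in FPKM, which is scaled for transcript length and library size. S1_3 stood apart from its replicates. The chi-square per transcript was 69.4 and 73.3 between S1_3 and the other stage I libraries, against 15.9 between S1_1 and S1_2 and 9.70 to 10.5 within stage III. The biological coefficient of variation, the replicate spread as a share of the level, was 0.254 in stage III and 0.579 in stage I. Without S1_3 it was 0.363 in stage I. The main results are therefore given with and without this library. The paper lists a lower RNA integrity number and a lower mapping rate for every stage I library than for any stage III library. Effects of these cannot be told apart from the stage here. Gene names were used for the 26 transcripts that the study matched to 19 genes of a model plant, and an annotation of the other transcripts was not used here. Markers of leaf, scale or other bud tissues were not analysed here.

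From the vegetative meristem to the floral organ, 7758 transcripts rose and 6730 fell. These are 11.9% and 10.3% of the 65124 tested, together 14488 or 22.2%. A transcript was called at a fold change over 2 and an adjusted p (q, Benjamini-Hochberg) under 0.05. The median size of the log2 fold change was 2.05 for the risers (quartiles 1.45 and 3.31) and 1.79 for the fallers (quartiles 1.36 and 2.43). Changes over 16-fold were found for 1336 risers (17.2%) and 497 fallers (7.39%), which includes transcripts at 0 in 1 stage, whose fitted size depends on the prior count. The median log2 fold change of all tested transcripts was 0.02. For 7757 of the risers and 6727 of the fallers the libraries of the stages did not overlap, as was the case upwards for 27.6% and downwards for 22.8% of all transcripts tested.

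**Figure D1:**
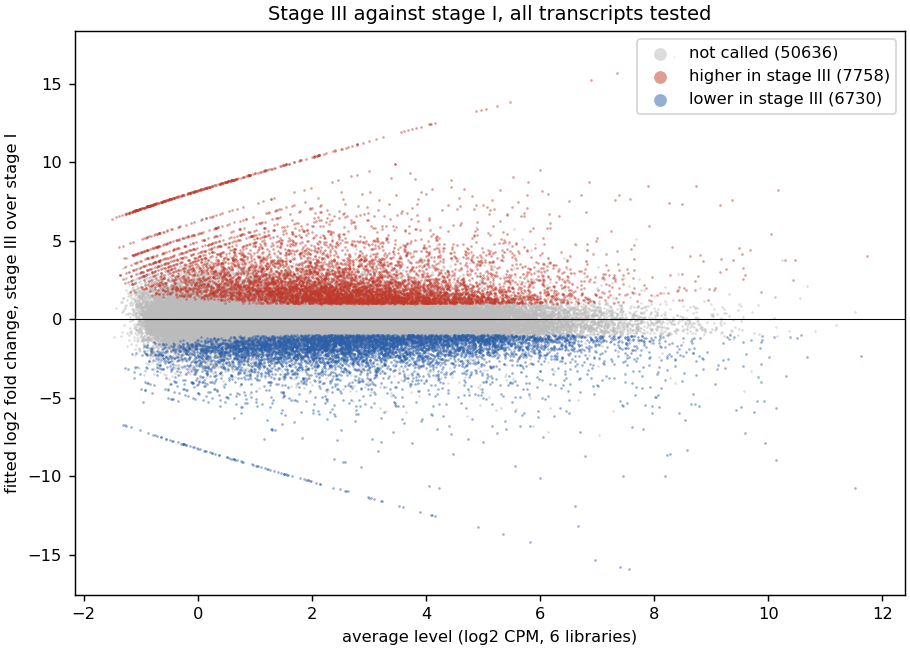
The fitted log2 fold change of stage III over stage I (vertical axis) is plotted against the average level in log2 CPM over the 6 libraries (horizontal axis), 1 point per transcript tested. The 7758 transcripts higher in stage III are red, the 6730 lower ones blue and the others grey. The narrow streaks at the top and bottom are transcripts with no or few reads in 1 stage, whose fitted fold change depends on the prior count and is not a measured size.

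The share of calls depended on the level. Among the 25% of transcripts with the lowest level 9.42% rose and 5.82% fell, and among the 25% with the highest level 12.1% rose and 14.2% fell. RSEM divides reads between similar transcripts, so fractional counts are shared ones. Among the 5735 tested transcripts with whole counts in all 9 libraries (tolerance 0.005), 13.2% rose and 10.1% fell, close to the shares over all transcripts.

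At the stricter criterion stated in the study's methods (fold change over 2, q under 0.001), edgeR called 4 transcripts (0.00614%), all of them lower in stage III. None was higher, while 26495 transcripts had an unadjusted p under 0.05 in either direction. The study applied this criterion with DESeq, and at the same criterion DESeq2 called 5250 higher and 4784 lower here. Limma voom with a quality weight for each library called 1056 higher and 1752 lower. It weighted S1_3 at 0.156, against 1.39 for S1_1 and 0.749 for S1_2, and the stage III libraries at 1.70 to 2.12.

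Without S1_3 the number of transcripts that rose was 11280 (16.6% of 67795 tested), and 9739 fell (14.4%), together 31%. At the stricter criterion 986 were higher (1.45%) and 1177 lower (1.74%). Of the risers called with all 6 libraries, 7170 (92.4%) were also called without S1_3, where they made up 63.6% of the calls. For the fallers the number shared was 6391 (94.96% and 65.6%). No transcript changed from a call in 1 direction to a call in the other. Leaving out any of the other libraries lowered the counts. Without S3_1, S3_2 or S3_3 in turn, 3409, 3539 or 2979 rose and 2900, 3081 or 2576 fell, and without S1_1 or S1_2 the numbers were 7134 or 5547 up and 5744 or 5201 down.

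**Figure D2:**
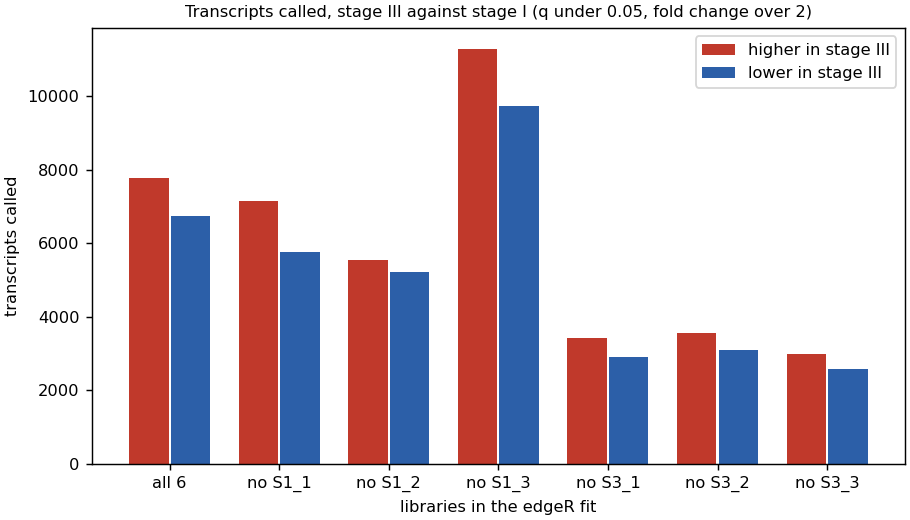
Bars give the number of transcripts called in edgeR (q under 0.05, fold change over 2) as higher (red) or lower (blue) in stage III than in stage I, with all 6 libraries and with each library left out in turn. The bars are tallest without S1_3, at 11280 and 9739, and lowest without S3_3, at 2979 and 2576.

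S1_3 can also be read as a library that had no part in the calls made without it. The stage III libraries it is set against did take part in those calls. The choice thus favours the called direction, and the shares below are a description that was not tested. It lay below all 3 stage III libraries for 9878 of these 11280 risers (87.6%) and above all 3 for 7909 of the 9739 fallers (81.2%). Over all 67795 transcripts tested there, it lay below them for 45.2% and above them for 36.6%. For 727 risers and 804 fallers it lay beyond the stage III libraries on the wrong side. Relative to the stage III mean, the median riser of this set stood at a log2 difference of -1.84 in S1_3, against -1.78 in S1_1 and -2.02 in S1_2. The median faller stood at 1.14 in S1_3, 1.52 in S1_1 and 1.77 in S1_2. S1_3 thus lay between its replicates for the median riser and nearer to the floral organ than both for the median faller.

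Of the 26 transcripts with a gene name, 25 could be tested, of which 14 rose, 3 fell and 8 were not called, where 11.9% and 10.3% of all transcripts rose and fell. Their median log2 fold change was 1.91, against 0.02 over all transcripts tested, and is the same with those at 0 in stage I set at their lower bound. The study picked this list as differentially expressed in these same libraries, so the counts are no independent evidence of a direction. At the stricter criterion 0 of the 25 passed in edgeR, and 21 had an unadjusted p under 0.05. The study applied that criterion with DESeq, and the 0 depended on the tool. In DESeq2 part of the list passed it, such as FT (q = 1.83e-11), and part did not, such as LFY (q = 0.112). In edgeR without S1_3, 17 rose and 3 fell, and 1 passed the stricter criterion. Transcripts are given below by the symbol of their match and the cluster number in their identifier.

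**Figure D3:**
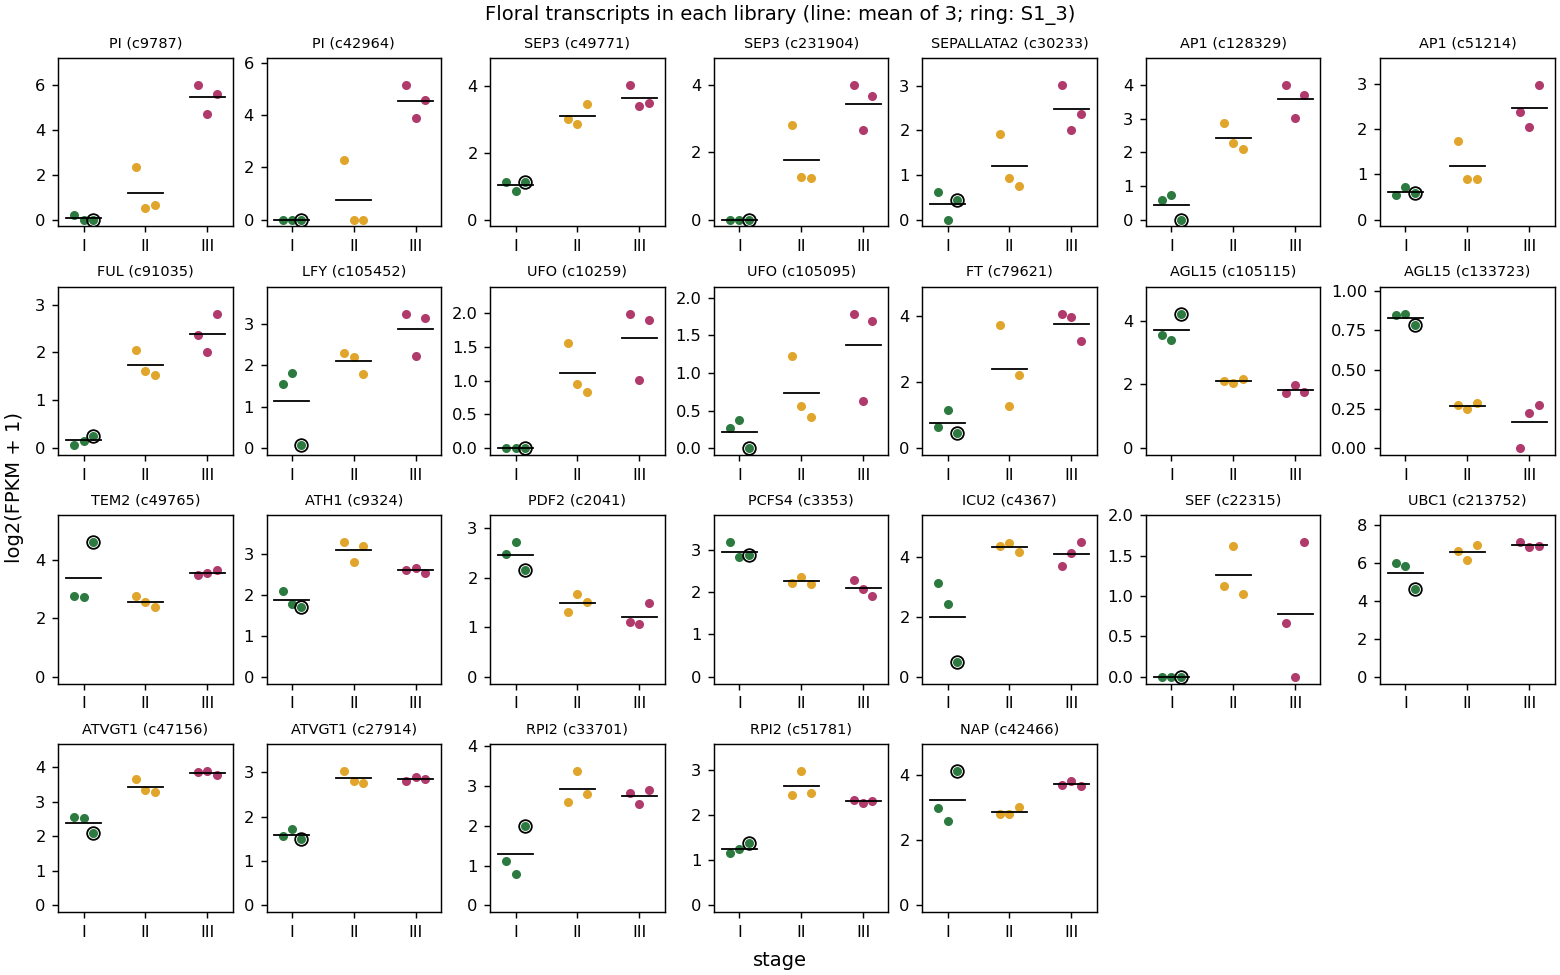
Each panel plots log2(FPKM + 1) of 1 of the 26 named transcripts in the 9 libraries, by stage, with a line at the mean of the 3 libraries and a ring around S1_3. The 5 organ identity and 6 meristem identity transcripts come first, and in each of them all stage III points lie above all stage I points. The libraries of the stages lay apart in this direction for 27.6% of all transcripts tested. S1_3 lies far above its replicates for TEM2 and NAP and far below them for LFY and ICU2.

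All 5 organ identity transcripts rose. PI (c9787), the petal and stamen factor, had 62.7, 25.4 and 47.7 FPKM in S3_1 to S3_3, against 0.16, 0 and 0 FPKM in S1_1 to S1_3. The stage I values rest on 2 reads in S1_1 and none in the others. The ratio of summed reads, scaled for library size, was 766 with an exact 95% counting interval of 212 to 6329 (q = 0.0022). The other PI transcript (c42964) had 34.7, 13.9 and 23.1 FPKM in stage III and was listed at 0 in all 3 stage I libraries. It was at least 103-fold higher in stage III than a floor of 3 reads per library (q = 0.00386). PI was thus at or near 0 in the vegetative meristem and at 13.9 FPKM or more in every floral organ library.

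SEP3 (c49771) had 15.2, 9.42 and 10.1 FPKM in stage III, against 1.18, 0.81 and 1.18 FPKM in stage I. Its log2 fold change was 3.30 (SE 0.34, q = 0.00306) and 3.38 without S1_3. The second SEP3 transcript (c231904) had 15.01, 5.35 and 11.7 FPKM in stage III and was listed at 0 in stage I, at least 55.6-fold over the floor (q = 0.00535). Both transcripts were at about the same level in the floral organ, and only c49771 had reads in the vegetative meristem. SEPALLATA2 (c30233) had 7.11, 3.06 and 4.19 FPKM in stage III, against 0.53, 0 and 0.36 FPKM in stage I, and rose by a log2 fold change of 3.82 (SE 0.90, q = 0.0252). Its counts were whole in every library.

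Of the 6 meristem identity transcripts, 4 rose with all libraries and all 6 without S1_3. AP1 (c128329) had 15, 7.18 and 11.96 FPKM in stage III, against 0.49, 0.67 and 0 FPKM in stage I, a log2 fold change of 4.78 (SE 0.89, q = 0.0124). The lone value of 0 was that of S1_3, and without it the log2 fold change was 4.15 (q = 0.00173). AP1 (c51214) rose too (log2 fold change 3.02, SE 0.43, q = 0.00592). It had 4.19, 3.17 and 6.90 FPKM in stage III, against 0.46, 0.66 and 0.50 FPKM in stage I. Each stage III value was below that of AP1 (c128329) in the same library. FUL (c91035), a close relative of AP1, had 4.12, 3.00 and 6.02 FPKM in stage III, against 0.05, 0.11 and 0.20 FPKM in stage I. As stage I held only 1, 2 and 4 reads, its ratio of summed reads is given, 34.1 with an exact 95% counting interval of 16.3 to 85.7 (q = 0.00379). The AP1 and FUL transcripts were all present at a low level in at least 2 vegetative libraries.

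LFY (c105452), the central meristem identity factor, was already present in the vegetative libraries S1_1 and S1_2 and was near 0 in S1_3. It had 8.51, 3.66 and 7.77 FPKM in stage III, against 1.95, 2.52 and 0.05 FPKM in stage I. The stages did not overlap, yet S1_3 lay so far below its replicates that LFY was not called (log2 fold change 2.07, SE 1.001, q = 0.172). Without S1_3 its log2 fold change was 1.44 (SE 0.42, q = 0.0385), past the threshold. UFO (c10259) had 2.98, 1.01 and 2.71 FPKM in stage III and was listed at 0 in stage I, at least 18.3-fold over the floor (q = 0.00901). The other UFO transcript (c105095) had 2.45, 0.55 and 2.23 FPKM in stage III, against 0.20, 0.30 and 0 FPKM in stage I, and missed the threshold with S1_3 (log2 fold change 3.26, SE 1.03, q = 0.0597) but not without it (2.63, SE 0.80, q = 0.0425).

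The organ and meristem identity transcripts also varied together within a stage. S3_2 was the lowest stage III library for all 11 of them, at 0.235 to 0.745 times the mean of S3_1 and S3_3 (median 0.482). Over all 7758 risers S3_2 was the lowest in 30.4%, with a median ratio of 0.996, and it was the lowest for 4 of 14 other transcripts of the floral list. In stage II, S2_1 was the highest library for 10 of the 11, against 50.3% of all risers. This pattern was noticed after the values were seen, and several of the 11 are transcripts of the same gene. FT (c79621), a floral integrator, followed it in stage II, with 12.3, 1.42 and 3.64 FPKM in S2_1 to S2_3, but not in stage III. It had 15.9, 14.6 and 8.48 FPKM in stage III, against 0.55, 1.24 and 0.37 FPKM in stage I, with S3_3 as its lowest floral library (log2 fold change 4.06, SE 0.50, q = 0.00434). Its counts were whole in all libraries.

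The 3 transcripts of floral repressors did not move as a group. AGL15 (c105115), a MADS-box factor that delays flowering, fell to 2.35, 2.93 and 2.41 FPKM in stage III, against 10.7, 9.42 and 17.6 FPKM in stage I (log2 fold change -2.43, SE 0.33, q = 0.0054). Without S1_3, its highest library, the log2 fold change was -2.11 and q was 0.000967. In that edgeR fit it was the only transcript of the floral list past the stricter criterion. AGL15 (c133723) had 0, 0.17 and 0.21 FPKM in stage III, against 0.80, 0.81 and 0.72 FPKM in stage I, and was not called (log2 fold change -2.68, SE 0.87, q = 0.0646). TEM2 (c49765), which represses FT, had 10.1, 10.9 and 11.5 FPKM in stage III, against 5.73, 5.66 and 23.4 FPKM in stage I. Its direction rested on S1_3: the log2 fold change was -0.26 (SE 0.61, q = 0.779) with that library and 0.78 (SE 0.15, q = 0.009) without it, a change of less than 2-fold.

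Among the other regulators, PDF2 (c2041), a homeodomain factor of the epidermis, fell to 1.15, 1.09 and 1.79 FPKM in stage III, against 4.59, 5.57 and 3.44 FPKM in stage I (log2 fold change -1.85, SE 0.29, q = 0.00788). PCFS4 (c3353), which acts in processing the 3′ ends of mRNA, fell to 3.88, 3.22 and 2.77 FPKM in stage III, against 8.04, 6.04 and 6.27 FPKM in stage I (log2 fold change -1.16, SE 0.21, q = 0.012). Both were below all stage I libraries in each stage III library. ATH1 (c9324), a homeodomain factor of the shoot apex, had 5.11, 5.26 and 4.78 FPKM in stage III, against 3.28, 2.45 and 2.28 FPKM in stage I. Its stages lay apart and q was 0.0334, but the log2 fold change of 0.81 (SE 0.21) was under the criterion.

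UBC1 (c213752), a ubiquitin-conjugating enzyme and the most abundant of the named transcripts, had 134, 114 and 117 FPKM in stage III, against 61.1, 55.2 and 23.1 FPKM in stage I (log2 fold change 1.28, SE 0.34, q = 0.0349). Without S1_3, its low library, the log2 fold change was 0.92 (q = 0.00424), and the call was lost on the size of the change. ICU2 (c4367), the catalytic subunit of DNA polymerase alpha, had 11.8, 16.4 and 21.5 FPKM in stage III, against 7.66, 4.33 and 0.41 FPKM in stage I. It was not called with S1_3 (log2 fold change 1.91, SE 0.88, q = 0.155) and rose without it (1.32, SE 0.35, q = 0.0283). SEF (c22315), a subunit of a chromatin remodelling complex, had 0.59, 0 and 2.18 FPKM in stage III, was listed at 0 in stage I, and did not pass the filter on low counts. NAP (c42466), a NAC factor named for its control by PI and its partner, had 11.7, 12.9 and 11.6 FPKM in stage III, against 6.83, 4.95 and 16.3 FPKM in stage I. It was not called (log2 fold change 0.21, SE 0.48, q = 0.773), and without S1_3 the log2 fold change was 0.89 (q = 0.0151).

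Of the 4 transcripts of sugar metabolism 3 rose, and all 4 without S1_3. ATVGT1, a vacuolar glucose transporter, had 13.4, 13.9 and 12.5 FPKM (c47156) in stage III, against 4.85, 4.78 and 3.23 FPKM in stage I (log2 fold change 1.52, SE 0.20, q = 0.00491). The second ATVGT1 transcript (c27914) changed by nearly as much, with 5.98, 6.46 and 6.22 FPKM in stage III, against 1.96, 2.29 and 1.82 FPKM in stage I (log2 fold change 1.51, SE 0.19, q = 0.00478). RPI2, a ribose-5-phosphate isomerase of the pentose phosphate pathway, rose in c51781 to 4.07, 3.82 and 3.97 FPKM in stage III, against 1.23, 1.36 and 1.59 FPKM in stage I (log2 fold change 1.38, SE 0.26, q = 0.0132). For RPI2 (c33701) S1_3 was again the odd library. The values were 6.13, 4.82 and 6.45 FPKM in stage III, against 1.17, 0.74 and 2.96 FPKM in stage I. The log2 fold change was 1.68 (SE 0.56, q = 0.0702) with S1_3 and 2.45 (SE 0.33, q = 0.00323) without it.

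The gains and losses of whole transcripts were counted next. Gained transcripts had no reads in any stage I library and at least 10 in each stage III library, and lost transcripts the reverse. In this way 326 floral transcripts were gained and 106 vegetative transcripts were lost. Both sets were of low abundance for the most part, with a median FPKM of 1.38 for the gained in stage III and 2.04 for the lost in stage I. A mean of at least 10 FPKM was reached by 23 of the gained and 18 of the lost. Together the gained transcripts held 0.232 to 0.312% of the fragments of a stage III library, and the lost 0.138 to 0.213% of those of a stage I library. Of the floral list 3 were among the gained, PI (c42964), SEP3 (c231904) and UFO (c10259), and 0 of the 26 were among the lost. Whole counts in all 9 libraries were found for 8.81% of all transcripts tested, a larger share than among the gained or the lost. Of the gained 8 and of the lost 2 had them, and the others had fractional counts in at least 1 library. Whether the division of shared reads by RSEM set their value of 0 in a stage was not tested.

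Most of the gained transcripts had some reads in each floral meristem library, and fewer of the lost ones did. At least 10 reads in each stage II library, the bar used for the end stages, were reached by 160 of the gained and 6 of the lost. All 3 stage II libraries had reads for 221 of the 326 gained transcripts (67.8%), and none had for 9 (2.76%). Of the 106 lost transcripts, 19 (17.9%) still had reads in all 3 stage II libraries, 63 in 1 or 2 and 24 (22.6%) in none. Without S1_3 the numbers were 542 gained and 179 lost, with all of the first 326 and 106 among them. Of the 216 added to the gained, 126 had 10 or more reads in S1_3. Leaving out S1_1 or S1_2 in place of S1_3 gave 724 or 545 gained and 170 or 159 lost, so each vegetative library held some of these transcripts off the lists.

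The most abundant transcripts of the end stages were compared next. Of the 10 with the highest mean FPKM in stage III, 7 had risen, and of the 10 highest in stage I, 9 had fallen. None was on both lists. A transcript picked for a high level in 1 stage is likelier to be higher there, so the choice favours these directions and the counts are a description. The stage I leaders had median levels of 4912, 1711 and 1476 FPKM over stages I, II and III, and the lowest of them was at 4.74 FPKM by stage III. Median levels of the stage III leaders over the same stages were 526.0, 2965 and 4054 FPKM. Of the 100 highest in each stage, 43 were shared by stages I and III, 51 by stages I and II and 72 by stages II and III. Of the 100 highest of stage III, 41 had risen, 34 of them over 4-fold, and 8 had fallen. Of the 100 highest of stage I, 48 had fallen, 29 of them over 4-fold, and 0 had risen. Among the 25% of tested transcripts with the highest level, 12.1% rose and 14.2% fell. By the calls made without S1_3, 51 of the same stage III list had risen and 55 of the same stage I list had fallen, and 39 transcripts were shared by the 100 highest of stage III and of stage I when that library was left out of the stage I mean.

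Among the called transcripts, the risers held more of the fragments in stage III and the fallers more in stage I. The fallers held 7.88, 7.71 and 7.17% of the fragments in S3_1 to S3_3, against 27.7, 30.7 and 26.7% in S1_1 to S1_3. The risers held 21.5, 21.1 and 21.7% in stage III, against 4.78, 3.95 and 4.05% in stage I. For the sets called without S1_3, the risers held 27.8 to 29.1% in stage III, against 6.61% in S1_1, 5.40% in S1_2 and 9.58% in S1_3. The fallers of these sets held 9.70 to 10.5% in stage III, against 33.7, 37.3 and 28.6% in S1_1 to S1_3. These shares describe the sets, which were chosen on the same libraries, apart from S1_3 in the sets called without it. Fragments were also spread over more transcripts in the floral organ than in the vegetative meristem. The 100 most abundant transcripts of each library held 10.7% ± 0.333 of its fragments in stage III and 12.5% ± 0.483 in stage I (SD, n = 3 each), a difference of -1.76 percentage points that was larger than the spread in either stage (exact permutation test, two-sided, p = 0.1, below which 3 against 3 cannot go). For the 1000 most abundant the shares were 30.3% ± 0.370 in stage III and 35.3% ± 0.604 in stage I (same exact permutation test, p = 0.1). In the floral meristem the 100 most abundant held 7.91, 10.1 and 8.86% in S2_1 to S2_3, less than in any stage III library.

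**Figure D4:**
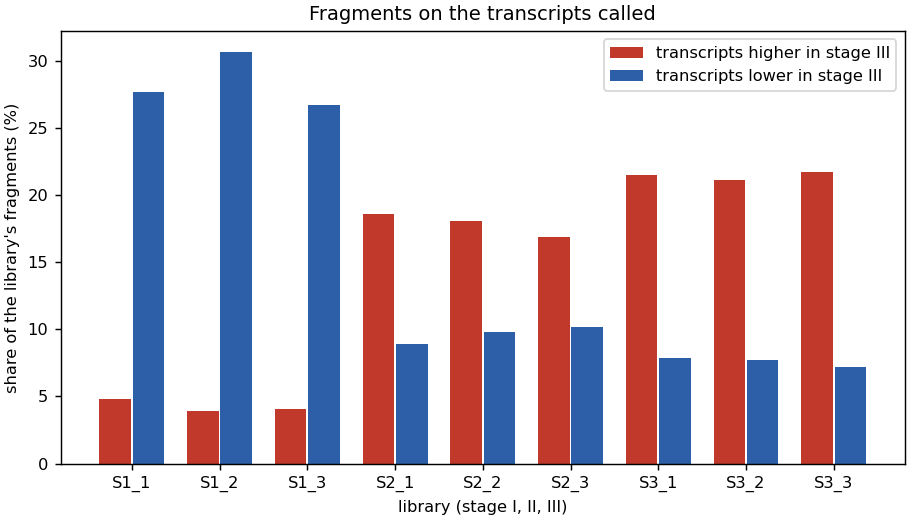
Bars give the share of each library's fragments, in percent, that fell on the 7758 transcripts higher in stage III (red) and on the 6730 lower ones (blue), for the 9 libraries in order of stage. Over stages I, II and III the risers held 3.95 to 4.78%, 16.9 to 18.6% and 21.1 to 21.7%, and the fallers 26.7 to 30.7%, 8.93 to 10.2% and 7.17 to 7.88%.

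Most of the way from vegetative meristem to floral organ had been covered by stage II. For each transcript called, the position of stage II was taken as its distance from the stage I mean, as a share of the distance from stage I to stage III, on log2 CPM. The median position was 0.904 for the risers (quartiles 0.742 and 1.06) and 0.846 for the fallers (quartiles 0.702 and 0.992). Taking the stage II libraries singly, it was 0.915, 0.921 and 0.913 for the risers and 0.835, 0.850 and 0.811 for the fallers. At least 0.75 of the way had been covered by 5763 risers (74.3%) and 4554 fallers (67.7%), and less than 0.25 by 182 risers (2.35%) and 125 fallers (1.86%). Stage II lay beyond stage III for 2628 risers (33.9%) and 1607 fallers (23.9%).

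**Figure D5:**
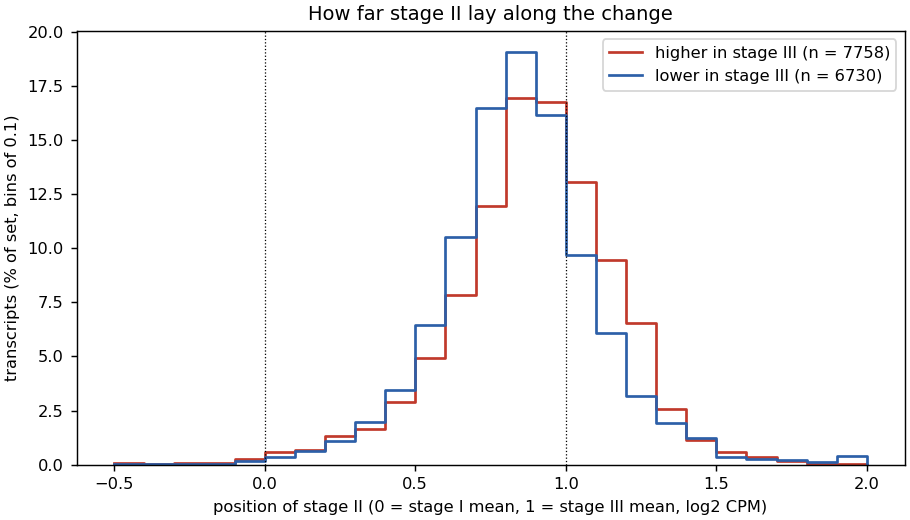
The lines give the share of the 7758 risers (red) and 6730 fallers (blue), in percent, by the position of stage II between the stage I mean (0) and the stage III mean (1), in bins of 0.1, with values beyond the axis pooled in the end bins. Both sets peak between 0.8 and 1, with medians of 0.904 and 0.846.

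The ends were used to choose these transcripts and stage II was not, so the position is a description and was not tested. In the paper, every stage II library also had a higher RNA integrity number and mapping rate than any stage I library. Effects of these on the position cannot be told apart from the stage. The legend of the paper's design figure places the differentiation of floral organs in stage II. The first step, to stage II, had a median difference in log2 CPM of 1.77 for the risers and -1.45 for the fallers, and the second step, to stage III, one of 0.18 and -0.26. By size of the change, the median position of the fallers was 0.871 at 2- to 4-fold, 0.819 at 4- to 16-fold and 0.755 over 16-fold. For the risers the same classes stood at 0.899, 0.923 and 0.879, with no order by size. The size of the change is also the divisor of the position, so the classes are not independent of it. Without S1_3 in the calls and the levels, the medians were 0.892 for the risers and 0.865 for the fallers. On FPKM without a logarithm the order of the sets turned, with 0.843 for the risers and 0.912 for the fallers, so which set ran ahead depended on the scale.

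Tested one step at a time, with libraries shared between the steps, 6136 transcripts rose (9.49%) and 5162 fell (7.98%) in the floral meristem over the vegetative one, and 477 rose (0.734%) and 483 fell (0.743%) in the floral organ over the floral meristem. The organ identity factor PI was among those whose change came late. PI (c9787) had a position of 0.334, with 4.02, 0.42 and 0.59 FPKM in S2_1 to S2_3, and PI (c42964) had 3.86, 0 and 0 FPKM there and a position of 0.216. The SEP3 transcripts stood at 0.823 (c49771) and 0.681 (c231904), and SEPALLATA2 at 0.509. FUL stood at 0.805, and the AP1 transcripts at 0.728 (c128329) and 0.348 (c51214). AGL15 (c105115) had covered 0.845 of its fall. ATVGT1 (c27914) stood at 1.004, and RPI2 (c51781) and ATH1 were higher in stage II than in stage III, with positions of 1.29 and 1.70.

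By the rule for transcripts without a gene name, 357 rises and 289 falls qualified, and the 2 largest of each are given. They had whole counts in all libraries and were called with and without S1_3. The transcript i0_HQ_HNbud_c1532 had 372, 391 and 368 FPKM in stage III, against 2.16, 2 and 0 FPKM in stage I. S1_3 was again the library at 0, and the log2 fold change was 8.003 (SE 0.95, q = 0.00386) with it and 7.37 (SE 0.16, q = 0.000182) without it. In stage II it had 56.4, 102 and 32.1 FPKM, a position of 0.675.

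The second rise, i0_LQ_HNbud_c55297, had 46.4, 36.4 and 38.0 FPKM in stage III, against 0.60, 0.21 and 0.28 FPKM in stage I (log2 fold change 6.62, SE 0.40, q = 0.00119). It came late, with 2.58, 0.26 and 0.93 FPKM in stage II and a position of 0.159. Among the falls, i0_LQ_HNbud_c2494 had 1.36, 3.67 and 2 FPKM in stage III, against 137, 211 and 426 FPKM in stage I, with 13.4 to 21.2 FPKM in stage II (log2 fold change -6.99, SE 0.71, q = 0.00287, and -6.32 without S1_3). The largest fall was a matter of 1 library. The transcript i1_HQ_HNbud_c9523 had 0.14, 0.23 and 0.18 FPKM in stage III, against 1.12, 0.85 and 77.9 FPKM in stage I. Its log2 fold change was -7.34 (SE 2.17, q = 0.0495) with S1_3 and -2.55 (SE 0.47, q = 0.00879) without it.

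The identifiers record how a transcript was seen in the long reads. Of the risers 30.3% were of the high-quality class (HQ in the identifier), against 21.3% of the fallers and 22.7% of the tested transcripts not called. At least 2 full-length reads backed 35.2% of the risers, 24.8% of the fallers and 26.6% of the others. Among transcripts with an average over 2 CPM the high-quality shares were 36.1% for the risers, 24.5% for the fallers and 29.4% for the others. The median length was 1580 bp for the risers, 1651 bp for the fallers and 1724 bp for the others. Of the transcripts called without S1_3 that were also tested with it, 29.99% of 11015 risers and 19.9% of 9397 fallers were of the high-quality class. These are shares over transcripts, which are not independent, and were not tested.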

How the data were processed

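RNA-seq libraries of 'High Noon' buds, 3 per stage, were mapped by the authors with Bowtie2 to their own long-read transcripts, and RSEM gave the deposited expected counts per transcript and the FPKM values computed from them. Expected counts were rounded to whole numbers here and tested with edgeR 4.0.16 (R 4.3.3; filterByExpr with a minimum count of 10 and a minimum total of 15; TMM) on the 6 libraries of stages III and I. Calls needed a q (Benjamini-Hochberg) under 0.05 beside more than a 2-fold change. Standard errors were derived from the F statistic, as |log2 fold change| over its square root. Alternatives used DESeq2 1.42.0, limma 3.58.1 (also on log2(FPKM + 1)), other scalings and filters, all 9 libraries, a replicate block, and each library left out. The scripts were tested on simulated data with 200 changed transcripts. Stage II positions used TMM log2 CPM with a prior count of 2. Shares of fragments were compared with an exact permutation test.

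The library totals of the deposited counts, 20065002 to 25195520 over the 9 libraries, set the counting precision but not the spread between libraries. Where a stage was at 0, the fold was taken over a floor of 3 reads per library. Intervals (95%) and floors cover counting error only.

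Named were the 26 transcripts that the study pairs with genes and, without a name, the 2 largest rises and 2 largest falls among transcripts called with and without S1_3, with whole counts, stages that did not overlap, a mean of at least 100 reads in the higher stage and over 3 in the lower. These members, lists and rules were chosen with earlier results of these data known. The main call at q under 0.05 is less strict than the study's criterion, which is given beside it.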

Additional observations from a re-analysis of the deposited data

How the results depend on the processing

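The count past the stricter criterion (4 in edgeR) depended most on the processing. It was 10034 with DESeq2, 2808 with limma voom and quality weights, 1495 with limma on log2(FPKM + 1), 113 with no filter on low counts, 2895 with all 9 libraries in 1 fit and 14509 with DESeq2 without S1_3. Leaving out 1 library at a time gave 0 to 2163, with 0 for every library other than S1_3 (20242 to 25301 transcripts at an unadjusted p under 0.05 in those fits). At q under 0.05, DESeq2 without S1_3 called 11848 higher and limma on log2(FPKM + 1) called 4207 lower, and leaving out 1 library gave 2979 to 11280 higher and 2576 to 9739 lower. With a replicate block 3978 rose and 3740 fell, and 0 passed the stricter criterion (23310 at an unadjusted p under 0.05). Nothing states that the replicate numbers pair the samples. Deviations from the stage mean of same-numbered libraries of stages I and III correlated at -0.03, 0.07 and 0.03, and not every library correlated best with its own number. Those of differently numbered libraries correlated at -0.073 to 0.032. With 3 libraries a stage and S1_3 far from its replicates, these values cannot decide whether the samples are paired. The other scalings, filters and tools kept both counts within 1.5 times. Gained and lost transcripts numbered 517 and 173 with a minimum of 5 counts, 138 and 48 with a minimum of 30, and 406 to 724 and 159 to 194 with 1 library left out. The stage II position was 0.843 for risers and 0.912 for fallers on FPKM without a logarithm and 0.895 for risers on log2(FPKM + 1). It was 0.632 for the 4 fallers past the stricter criterion, which no riser passed. With 1 library left out it was 0.879 to 0.931 for risers and 0.809 to 0.865 for fallers. Of the floral list 12 to 21 passed the test, against 17 in the reported fit. TEM2 turned to a log2 fold change of 0.69 with voom, 0.20 with limma on log2(FPKM + 1), 0.14 with the replicate block, 0.78 without S1_3 and 0.78 with DESeq2 without S1_3. With 1 library left out TEM2 ranged over -0.63 to 0.78. NAP turned to -0.0083 without S1_1 and -0.14 without S1_2, and was at 0.89 without S1_3. Over the named transcripts and alternatives, 376 values kept their direction and side of the threshold, 20 passed it anew, 29 no longer passed and 7 turned. The share held by the 100 most abundant transcripts was lower in stage III under every alternative run. Apart from the library left out or the filter itself, the cause was not tested.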
